A study of Homo sapiens with 7 samples.

Results

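The messenger RNAs of ATF4 and of 9 genes that ATF4 is known to act on or with in the integrated stress response were examined in human colon carcinoma cells treated with bafilomycin A1. The 10 genes were ATF4, DDIT3, ATF3, TRIB3, CHAC1, ASNS, SESN2, PSAT1, DDIT4 and PPP1R15A. They were found by their gene name on the array, where they had 15 probes printed as 24 spots, of 36337 gene names, 50599 probes and 58717 spots in all. The cells were HCT116 H2B-GFP, a diploid line in which histone H2B is fused to a green fluorescent protein. Bafilomycin A1, called bafilomycin in the sample descriptions, inhibits the vacuolar ATPase that acidifies lysosomes. It was given at 10 nM for 30 h in medium with 10% serum, and 4 replicates were each measured on 1 single-colour array from 100 ng of total RNA. The 3 untreated samples of the same line were not analysed here, so the values describe the treated cells and the spread between their replicates, and no induction or repression by the drug was measured. The sample descriptions do not say whether the replicates came from separate cultures. The methods describe the experiments that the study evaluated statistically as biological replicates made independently, without naming these arrays, so the share of technical spread in the SDs is not known.

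In the integrated stress response, kinases that sense amino acid shortage, misfolded protein in the endoplasmic reticulum, haem deficiency or viral RNA phosphorylate the translation factor eIF2. General translation then slows while the reading frame of ATF4, a basic leucine zipper transcription factor, is translated more. ATF4 enters the nucleus and acts with partners such as CHOP, the product of DDIT3, on genes of amino acid synthesis and import, redox balance and growth control. Arrays measure messenger RNA and give no reading of eIF2 phosphorylation or of ATF4 protein.

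ATF4 is known to bind a composite element, written here as TGATGNAA, and related factors bind the cyclic AMP response element TGACGTCA. Both were searched on both strands in the RefSeq promoters of GRCh38.p14, each holding 250 bases before and 50 after a transcription start, and all 10 genes matched, with 16 promoters of 35116. The element TGATGNAA lay in promoters of 3 of the 10 genes, against 4.46% of 27305 genes. It lay in 3 of their 16 promoters, against 3.62% of all promoters. The element TGACGTCA lay in a promoter of 1 gene, against 2.25% of genes, and so in 1 of the 16 promoters, against 1.85%. The 4 matches are shown with the bases around them, since these 2 elements are the ones searched. Capitals mark the matched letters, and each line runs 5′ to 3′ along the strand of its gene.
ATF3, chr1:212565206-212565233, plus strand: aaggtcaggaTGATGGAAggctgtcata
CHAC1, chr15:40953252-40953279, plus strand: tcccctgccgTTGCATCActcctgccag
ASNS, chr7:97872459-97872486, minus strand: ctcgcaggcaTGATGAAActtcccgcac
PPP1R15A, chr19:48872353-48872380, plus strand: cctctcttcgTGACGTCAgcacgccggg
Counted from the transcription start of the promoter that held it, the match began at -191 in ATF3 and at -209 in CHAC1. It began at -68 in ASNS and at -58 in PPP1R15A. In CHAC1 the letters TGATGNAA are on the opposite strand. A match describes letters and was not measured as a binding site, and genes without a match lack these letters in this window only.

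All 10 genes were detected, meaning that at least 1 probe was well above background on all 4 arrays by the flag of the scanner software, where 52.5% of gene names passed. Each of the 15 probes passed, against 48.7% of all probes. Background-subtracted intensities of the 15 probes lay between 276 and 158159. None of the 24 spots was saturated or marked as an outlier on any array. On the 4 arrays 514, 725, 2249 and 527 spots were marked as outliers, most on replicate 3, and 60.4, 58.9, 58.5 and 55.6% of spots were well above background. Of 8 epithelial markers 7 were detected, and VIL1, a microvillus protein, was well above background on no array. Of 10 markers of blood, endothelial, stromal, muscle and glial cells 4 were detected (PTPRC, CD3E, VWF and COL1A1, through 5 of the 20 probes of this list), while PECAM1 and COL1A2 were well above background on no array.

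Values below are log2 background-subtracted signals minus the median of the array, with the median taken over the probes of a gene. Since a probe's signal also depends on its sequence, the level of one gene is not set against that of another, and differences are read between arrays. Spread is given as the SD between the 4 arrays and as the span, the ratio of the highest to the lowest array.

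**Figure D1:**
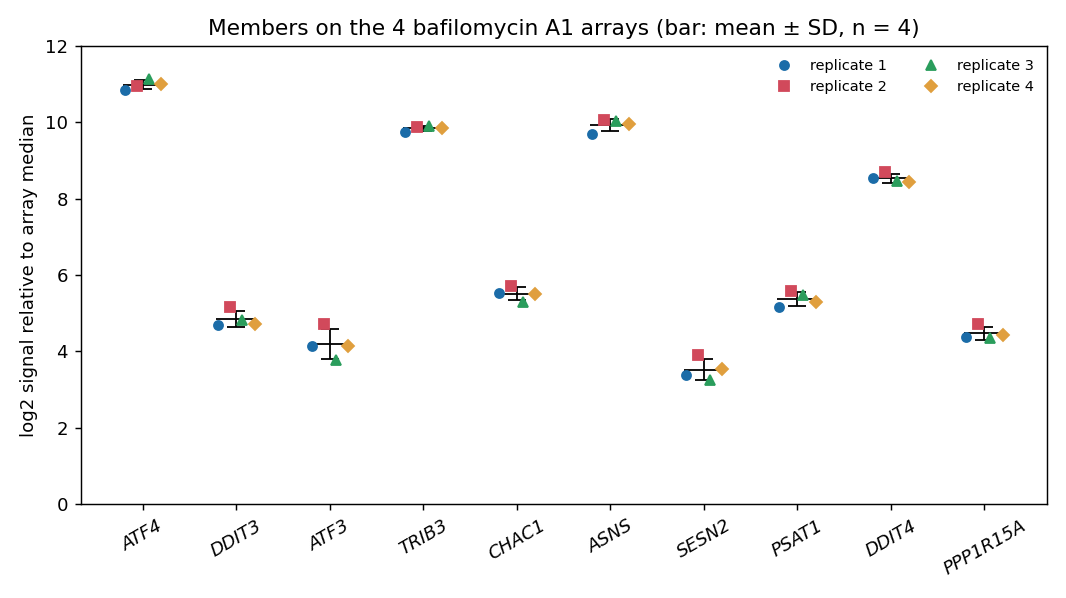
Log2 signal relative to the array median (vertical axis) of the 10 genes (horizontal axis) on the 4 bafilomycin A1 arrays. Each symbol is 1 array and the bar is the mean ± SD (n = 4); the symbols of TRIB3 span 1.13-fold and those of ATF3 1.92-fold.

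ATF4, the transcription factor of the pathway, is covered by 1 probe on chromosome 22 (GRCh37 chr22:39918577-39918636). Its values were 10.86, 10.94, 11.14 and 10.99 on replicates 1 to 4. They had a mean of 10.98 ± 0.12 (SD, n = 4) and a span of 1.21-fold. Replicate 3 was highest and replicate 1 lowest, and 15.5% of the detected genes had a smaller SD.

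DDIT3 encodes CHOP, a bZIP factor that dimerises with other family members and is known for its part in cell death under prolonged stress. The values of its 1 probe (GRCh37 chr12:57911200-57911526, minus strand), which covers 327 genomic bases with 60 probe bases and so crosses a splice junction, were 4.68, 5.16, 4.82 and 4.73. The mean was 4.85 ± 0.22 (SD, n = 4) and the span 1.397-fold. Replicate 2 was highest, and the other arrays lay close to each other: the SD without replicate 2 was 0.0710.

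ATF3, a bZIP factor that represses or activates stress genes depending on its partner, had the largest spread of the 10 genes when read as the median of its 4 probes. Its most 3′ probe alone had an SD of 0.215, below that of SESN2 at 0.282. The values of the gene were 4.15, 4.72, 3.78 and 4.13, with a mean of 4.19 ± 0.39 (SD, n = 4) and a span of 1.92-fold. Replicate 2 was high, replicate 3 low, and replicates 1 and 4 lay between them. Of the detected genes 83.7% had a smaller SD. Without replicate 2 the SD of ATF3 was 0.208.

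TRIB3, a pseudokinase that binds ATF4, CHOP and AKT and restrains their action, was the most even of the 10. Its 1 probe (GRCh37 chr20:378107-378166) gave 9.73, 9.87, 9.91 and 9.84, a mean of 9.84 ± 0.07 (SD, n = 4) and a span of 1.13-fold. Replicate 1 was lowest, and 4.16% of the detected genes had a smaller SD.

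CHAC1 encodes an enzyme that degrades glutathione in the cytosol. The gene's values, from 2 probes, were 5.53, 5.72, 5.30 and 5.50, with a mean of 5.51 ± 0.17 (SD, n = 4) and a span of 1.34-fold. Replicate 2 was highest and replicate 3 lowest.

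ASNS, asparagine synthetase, makes asparagine from aspartate and glutamine. Its 1 probe (GRCh37 chr7:97481461-97481520, minus strand) gave 9.69, 10.05, 10.03 and 9.95, a mean of 9.93 ± 0.16 (SD, n = 4) and a span of 1.28-fold. Replicate 1 lay below the other arrays, and without it the SD was 0.0553.

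PSAT1, phosphoserine aminotransferase, acts in serine synthesis. Its values, from 2 probes, were 5.16, 5.57, 5.47 and 5.30, with a mean of 5.38 ± 0.18 (SD, n = 4) and a span of 1.33-fold. Replicate 2 was again highest and replicate 1 lowest.

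SESN2 and DDIT4 encode inhibitors of mTORC1, the kinase complex that drives growth: sestrin 2 senses leucine, and the DDIT4 product REDD1 acts through the TSC complex. The 1 probe of SESN2 (GRCh37 chr1:28608194-28608253) gave 3.38, 3.90, 3.25 and 3.55, a mean of 3.52 ± 0.28 (SD, n = 4) and a span of 1.57-fold. DDIT4 (GRCh37 chr10:74035363-74035422) gave 8.55, 8.70, 8.46 and 8.44, a mean of 8.54 ± 0.12 (SD, n = 4) and a span of 1.20-fold. Both were highest on replicate 2, SESN2 was lowest on replicate 3, and DDIT4 was lowest on replicate 4. Without replicate 2 the SD was 0.150 for SESN2 and 0.0562 for DDIT4.

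PPP1R15A encodes GADD34, which brings protein phosphatase 1 to eIF2 and so ends the response. Its 1 probe (GRCh37 chr19:49378127-49378901, 775 genomic bases across a splice junction) gave 4.38, 4.73, 4.35 and 4.44, a mean of 4.47 ± 0.17 (SD, n = 4) and a span of 1.30-fold. Replicate 2 was high and the other arrays were alike, with an SD of 0.0478 without it.

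Of the 10 genes 2, ATF3 and SESN2, spanned more than 1.4-fold between the arrays, against 46.4% of the detected genes. Nearest to this limit were DDIT3 below it, at 1.397-fold, and SESN2 above it, at 1.57-fold. The limit was passed by 15.5% of detected genes after quantile normalization, where 3 of the 10 genes, ATF3, SESN2 and CHAC1, passed it. Without replicate 2 none of the 10 passed it (0 of 10, against 39% of the detected genes), and without replicate 3 the count stayed at 2, with 21.6% of the detected genes. The median SD of the 10 genes was 0.173, against 0.208 over the 19083 detected genes, and 7 of the 10 lay below the latter. None of the 10 had 1 array apart by Dixon's ratio (0 of 10, against 8.48% of detected genes).

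**Figure D2:**
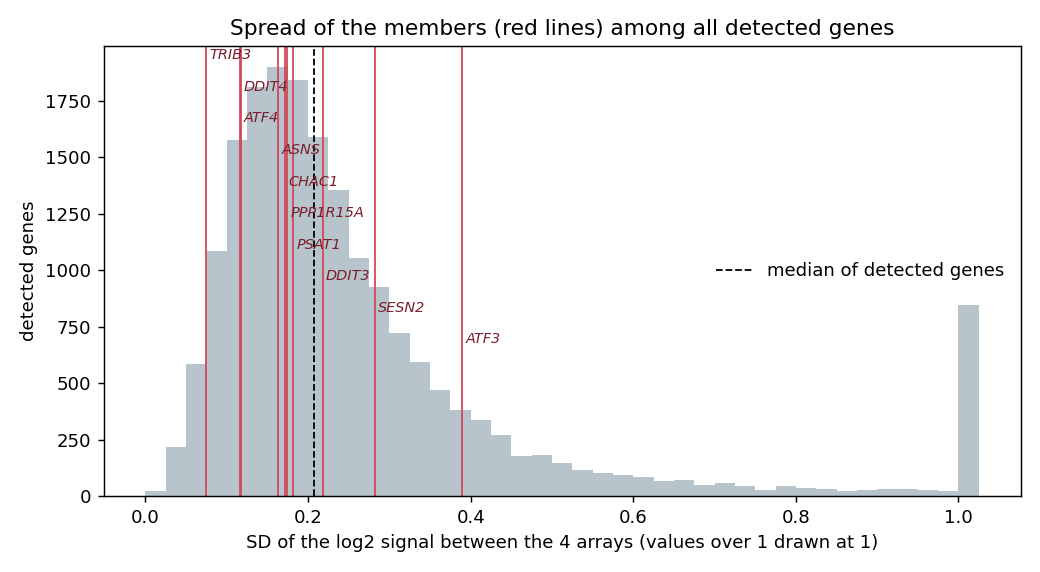
Histogram of the SD of the log2 signal between the 4 arrays (horizontal axis) over the 19083 detected genes (vertical axis, genes per bin), with values over 1 drawn at 1. Red lines mark the 10 genes, from TRIB3 at 0.0743 to ATF3 at 0.390, and the dashed line is the median of 0.208; 7 of the red lines lie to its left.

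The arrays differed in how the 10 genes stood together. On replicate 2, 8 of the 10 genes had their highest value, where 25.3% of the detected genes did, and 9 of the 10 lay above their own mean. None was lowest there (0 of 10), against 14.8% of the detected genes. The count rested on the probes read: with ATF3, CHAC1 and PSAT1 taken from their 3′ probe alone, a reading chosen after seeing the data, 5 of the 10 genes were highest on replicate 2 and 5 on replicate 3. With the upstream probe alone it was 8 and 2. The other 7 genes have 1 probe each, which was kept in both readings and is not always near the 3′ end. That of DDIT3 lies at position 110 of its transcript, so 5 of 10 is not a count over 3′ probes. Among 2553 transcripts with a pair of probes the 3′ probe was highest on replicate 2 in 17.5% and on replicate 3 in 71.5%, and the upstream probe in 46% and 32.8%. With all probes, ATF4 and TRIB3 were the other 2, both highest on replicate 3, which was the highest array for 48.5% of the detected genes. The lowest array was replicate 1 for 5 genes, replicate 3 for 4 and replicate 4 for 1, where it was so for 26.9, 23.2 and 35.1% of the detected genes.

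Averaged over the 10 genes, the deviation from each gene's own mean was -0.11, 0.21, -0.07 and -0.03 on replicates 1 to 4. The median deviation of the detected genes was -0.03, 0.03, 0.10 and -0.10. On replicate 3 this median was -0.01 in the dimmest 20% of the detected genes and 0.17 in the brightest 20%, and on replicate 2 it was 0.05 and -0.01. Of the 10 genes 7 were in the brightest 20%, and the shares over the detected genes were not matched for brightness. The SD between arrays of the mean over the 10 genes was 0.146, and 0.0371 without replicate 2, the array with the largest deviation. After normexp background correction and quantile normalization the mean deviations were -0.04, 0.20, -0.20 and 0.04, with 9 of the 10 genes highest on replicate 2 (20.9% of the detected genes). ATF4 was the exception there, with deviations of -0.06, 0.01, -0.01 and 0.05.

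**Figure D3:**
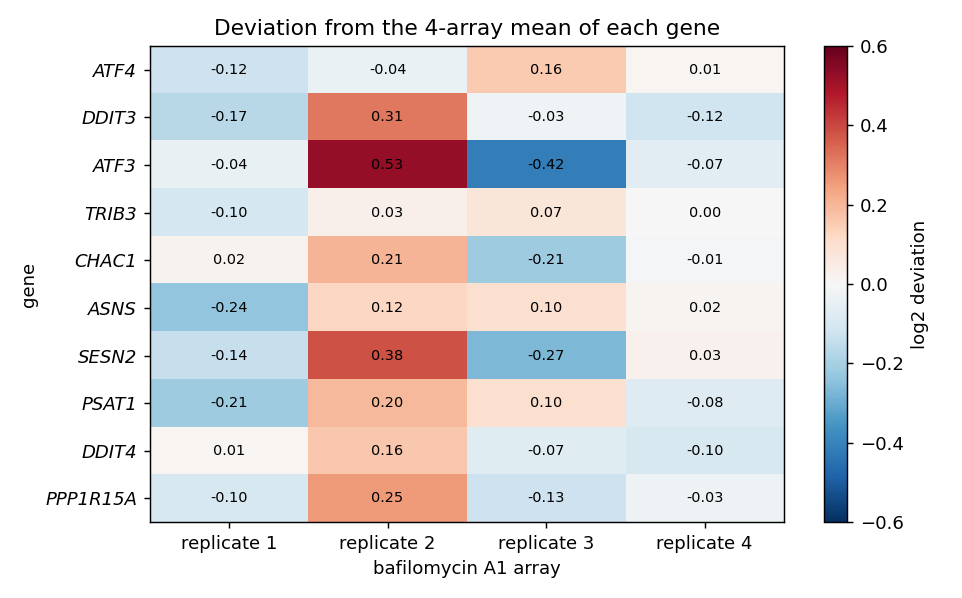
Deviation of each gene (rows) from its own mean over the 4 arrays, in log2 units, on each replicate (columns); red is above and blue below the mean. Replicate 2 is the highest array in 8 of the 10 rows, with ATF3 at 0.53 and SESN2 at 0.38, and replicate 3 holds the lowest value of ATF3 at -0.42.

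ATF3, CHAC1 and PSAT1 have more than 1 probe, and the probes of a gene disagreed on replicate 3. Probe sequences of the upstream probes of ATF3 and of CHAC1 are shown, since they lie in the coding part of the messenger RNA and had the largest SDs among the probes of their gene; they are printed 5′ to 3′ as in the files, with no base singled out.
ATF3 probe A_33_P3214105, GRCh37 chr1:212788502-212788561: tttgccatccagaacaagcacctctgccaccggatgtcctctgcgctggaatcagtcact
ATF3 probe A_24_P33895, GRCh37 chr1:212792837-212792896: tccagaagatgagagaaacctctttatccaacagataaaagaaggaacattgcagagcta
CHAC1 probe A_33_P3376965, GRCh37 chr15:41247814-41247873: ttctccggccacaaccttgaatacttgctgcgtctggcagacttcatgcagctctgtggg

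For ATF3 the coding probe A_24_P33895, at position 1104 of its transcript, read 3.87, 4.46, 3.17 and 3.84 on replicates 1 to 4, an SD of 0.53 and a span of 2.45-fold. The probe A_23_P34915, 1019 bases further towards the 3′ end (GRCh37 chr1:212793856-212793915), read 8.51, 8.89, 8.99 and 8.69, an SD of 0.22. Replicate 3 was therefore the lowest array for the first and the highest for the second. The most upstream probe, A_33_P3214105, read 4.43, 4.98, 4.38 and 4.41, with replicate 2 apart from the other 3 arrays. It is annotated to another transcript than the rest of the ATF3 probes. The remaining probe, A_33_P3214096 (GRCh37 chr1:212792519-212792578), taken here as the probe of a transcript variant, read 2.37, 2.37, 1.98 and 2.12. The value of the gene is the median of these 4 probes, which on every array is the mean of A_24_P33895 and A_33_P3214105. It thus joins 2 probes annotated to different transcripts, and the brightest probe, A_23_P34915, does not enter it.

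For CHAC1 the coding probe A_33_P3376965 read 3.57, 3.85, 2.81 and 3.41, an SD of 0.44 and a span of 2.05-fold, lowest on replicate 3. The probe A_33_P3376971, 817 bases towards the 3′ end (GRCh37 chr15:41248631-41248690), read 7.49, 7.59, 7.79 and 7.59, an SD of 0.12, highest on replicate 3. Being the median of 2 probes, the gene's value averaged readings that moved in opposite directions on that array. PSAT1 showed a smaller contrast of the same sign. Its upstream probe A_21_P0010626 (GRCh37 chr9:80944015-80944074) read 2.98, 3.43, 3.12 and 3.098, highest on replicate 2. Its probe A_23_P259692, 763 bases towards the 3′ end (GRCh37 chr9:80944778-80944837), read 7.35, 7.72, 7.83 and 7.51, highest on replicate 3.

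The contrast was expressed as the deviation of the 3′ probe minus that of the upstream probe. In ATF3 it was -0.29, -0.50, 0.89 and -0.09 against A_24_P33895, the ATF3 probe with the largest SD. Against the most upstream probe A_33_P3214105 it was -0.14, -0.30, 0.39 and 0.06, and against A_33_P3214096 it was -0.42, -0.04, 0.45 and 0.00. All ATF3 contrasts were thus highest on replicate 3, and their size depended on the upstream probe. In those against A_33_P3214105 and A_33_P3214096, differences between transcripts were not separated from probe position. In CHAC1 it was -0.28, -0.46, 0.77 and -0.03, and in PSAT1 -0.07, -0.15, 0.27 and -0.04. Over 2553 transcripts with a pair of detected probes at least 200 bases apart, the median was -0.10, -0.12, 0.22 and -0.00, and the 3′ probe stood higher in 29.0, 29.2, 76.8 and 48.6% of them. On replicate 3 the 3′ probe stood higher in ATF3, CHAC1 and PSAT1 as in most transcripts. In these 3 genes it was also the brightest probe, in CHAC1 at 15486 against 494 on replicate 3. On that array the median deviation of the detected genes was -0.01 in the dimmest 20% and 0.17 in the brightest 20%. Position and brightness were not separated. After quantile normalization the contrast on replicate 3 was 0.81, 0.38 and 0.33 for the 3 ATF3 pairs in the same order, 0.64 in CHAC1 and 0.20 in PSAT1, with a median of 0.15 over the transcripts. The part of probe position in the replicate values of the 10 genes was not tested.

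**Figure D4:**
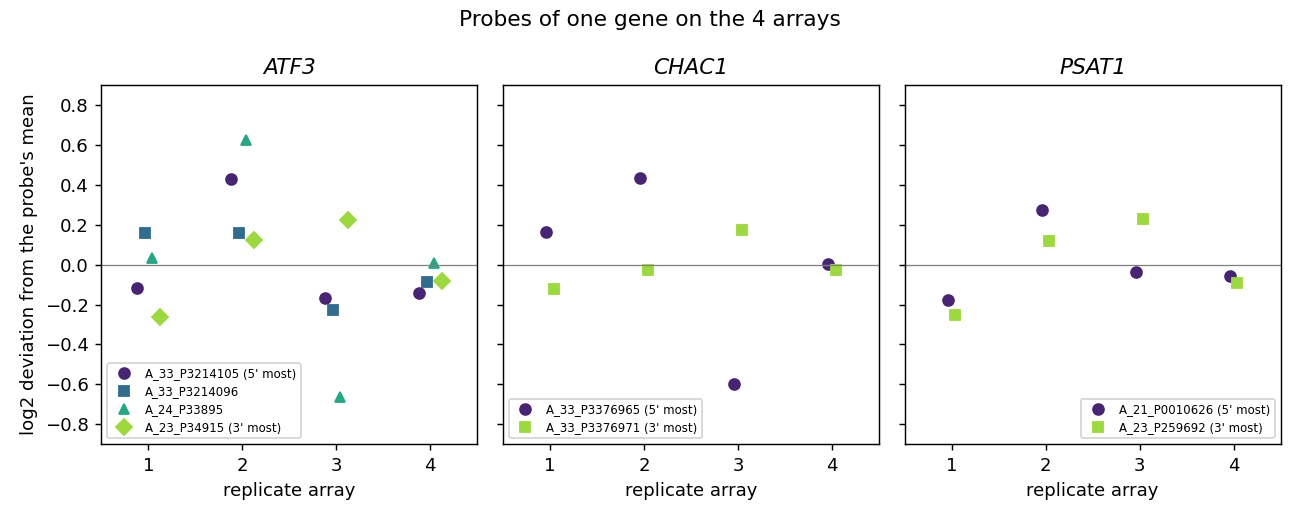
Deviation of each probe of ATF3, CHAC1 and PSAT1 from its own mean (vertical axis, log2 units) on the 4 replicate arrays (horizontal axis); each symbol is 1 probe, coloured from the most 5′ (dark) to the most 3′ (light). On replicate 3 the most 3′ probe lies above 0 in all 3 genes, at 0.22, 0.17 and 0.23, while A_24_P33895 of ATF3 and A_33_P3376965 of CHAC1 lie at -0.66 and -0.60.

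When the 3 genes were read from the 3′ probe alone, 1 of the 10 genes spanned more than 1.4-fold, SESN2, and the SD of ATF3 was 0.215. When they were read from the upstream probe alone, 3 genes did and the SD of CHAC1 was 0.437. No share over all detected genes was taken for either reading, so these counts have no background to be set against. Of the 15 probes, 4 spanned more than 1.4-fold, against 43.5% of the probes detected on all arrays.

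The probe of DDIT4 is printed as 10 spots on each array, which gives a measure of the technical spread within an array. The spots ran from 8.30 to 8.86 on replicate 1, from 8.43 to 8.997 on replicate 2, from 8.25 to 8.78 on replicate 3 and from 8.27 to 8.70 on replicate 4. The pooled SD of spots within an array was 0.206 and the SD between arrays 0.116. Over the 673 detected probes with 10 spots the medians were 0.179 and 0.196, and 70.1% and 13.8% of these probes had smaller values than DDIT4. The SD within an array is that of single spots, and for DDIT4 it includes differences between spot positions that recurred on every array. The SD between arrays is that of means over the 10 spots, so these SDs are not like measures.

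The same 3 spots of DDIT4 were the brightest on every array, and they did not overlap with the other 7. On replicate 1 the lowest of the 3 was at 8.80 and the highest of the other 7 at 8.54. They are the spots at row 119 and column 57, row 140 and column 97, and row 240 and column 76, and they stood 0.25, 0.29 and 0.29 above the mean of the spots. With the mean of each array and of each spot position removed, the residual SD of a spot was 0.0385. After the array median was subtracted, each of the 10 spots was highest on replicate 2, so the higher centred value did not rest on single spots. The spots of an array share its sample and its median, so they are not independent. Before centring, the probe read 28828 on replicate 1 and 29110 on replicate 2, where the median log2 signals of the arrays were 6.27 and 6.13. Spots 6 and 10 were then brighter on replicate 1 than on replicate 2.

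**Figure D5:**
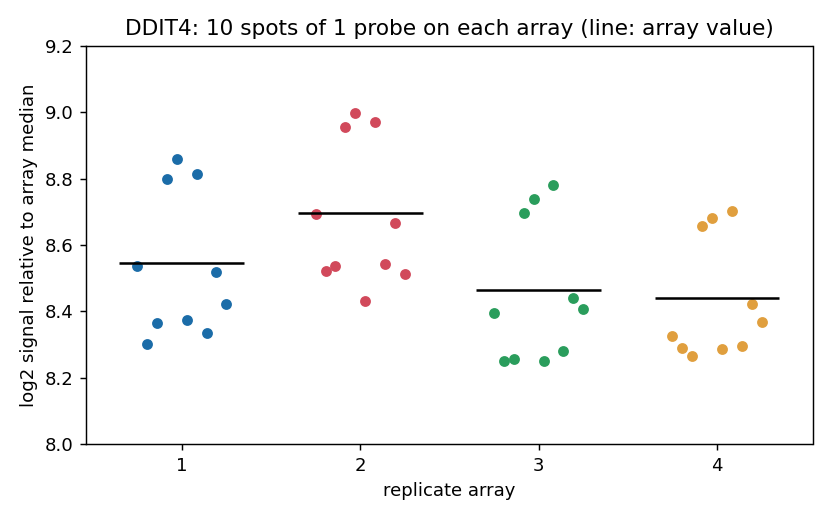
Log2 signal relative to the array median (vertical axis) of the 10 spots of the DDIT4 probe on each replicate array (horizontal axis); points are spots in the same order on every array and the line is the array value. The array values were 8.55, 8.70, 8.46 and 8.44, and 3 spots at the same positions lie above the line on every array.

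The genes around the 10 were read from lists. Of 21 genes for the eIF2 kinases, eIF2, its exchange factor eIF2B and its phosphatase, 20 were found by name and 19 detected, and EIF2S3 was not found by its symbol. Of the 19, 6 spanned more than 1.4-fold, against 46.4% of the detected genes, with a median SD of 0.21. The smallest SDs were those of EIF2B2, a subunit of the exchange factor, at 0.09, of DELE1, which relays mitochondrial stress, at 0.09, and of EIF2S2, a subunit of eIF2, at 0.11. The largest were those of EIF2B5 at 0.25, of the phosphatase subunit PPP1CA at 0.37 and of IMPACT, an inhibitor of the amino acid sensing kinase, at 0.39. The mean deviation of this list was -0.07, 0.08, 0.12 and -0.13, highest on replicate 3. Of the 19 genes 8 were highest on replicate 2 and 11 on replicate 3, against 25.3% and 48.5% of the detected genes. After quantile normalization 6 were highest on replicate 2, against 20.9%.

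A list of 41 other ATF4 targets held 39 detected genes, of which 20 spanned more than 1.4-fold, near the 46.4% of all detected genes, with a median SD of 0.22. The hormone gene FGF21 was well above background on no array. The smallest SDs belonged to the peptide hormone gene ADM2 (0.05), to PCK2, a mitochondrial enzyme that makes phosphoenolpyruvate (0.09), and to the secreted stress cytokine GDF15 (0.09). The largest belonged to the alanyl-tRNA synthetase AARS1 (0.59), to SLC3A2, the heavy chain of amino acid transporters (0.66), and to the lipoprotein receptor VLDLR (1.00), which spanned 5.04-fold. The values of VLDLR were low, at -2.52, -3.18, -1.47 and -3.80 on replicates 1 to 4. They came from 2 probes that did not both have a value on every array, so its span is not a secure measure of spread. The mean deviation of this list was -0.06, 0.13, 0.04 and -0.10. It was highest on replicate 2, as for the 10 genes, and 16 of the 39 genes had their highest value there and 20 on replicate 3, where 25.3% and 48.5% of the detected genes did. After quantile normalization 19 of the 39 genes were highest on replicate 2, against 20.9% of the detected genes. On replicate 3 it was 15, for which no share of the detected genes was taken.

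Of 20 bZIP partners and relatives 16 were detected, of which 8 spanned more than 1.4-fold (46.4% of the detected genes), and NFE2L2, the oxidative stress regulator, and BATF were well above background on no array. Each was read by 1 probe, and that of NFE2L2 had a value on replicate 1 only, at -8.88. Whether the probe failed or the messenger RNA was missing cannot be told from it. Their SDs ran from 0.06 in FOSL2, 0.07 in JDP2 and 0.11 in ATF5 to 0.29 in FOSB, 0.30 in ATF1 and 0.31 in JUNB. Of these 16 genes 3 were highest on replicate 2 and 11 on replicate 3, against 25.3% and 48.5% of the detected genes. After quantile normalization 4 of the 16 were highest on replicate 2, against 20.9% of the detected genes. The 15 genes of the ATF6 and IRE1 branches of the unfolded protein response held 14 detected genes, of which 7 spanned more than 1.4-fold, also near 46.4%. The SDs there ran from 0.05 in CRELD2, 0.10 in HSP90B1, a chaperone, and 0.11 in MANF to 0.28 in EDEM1, 0.36 in the sensor ATF6 and 0.42 in SDF2L1. Of these 14 genes 6 were highest on replicate 2 and 8 on replicate 3, against the same 25.3% and 48.5%. With quantile normalization 7 of the 14 were highest on replicate 2, against the same 20.9%.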

How the data were processed

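Single-colour Agilent arrays of 4 bafilomycin A1 replicates were used. The files deposited by the authors are the scanner output of each array from Feature Extraction 10.7.3.1. Their signals are linear intensity values with the background subtracted and no normalization between arrays, next to flags per spot. All 4 arrays lay on 1 slide, so slide could not be tested as a batch. The 3 untreated samples were not analysed here, and with 1 group no test was made.

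Control spots and spots with an outlier flag of the feature or its background were left out, the spots of a probe were averaged, and log2 of the deposited background-subtracted intensity was taken, minus the median of the array over non-control probes with a positive signal, followed by the median over probes of a gene. Detection on an array required the flag for a signal well above background in over 50% of the spots of a probe. The span limit of 1.4-fold is the size named in the methods for fold changes. Dixon's ratio marked genes with 1 array apart, which chance gives in about 5% of genes.

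The genes, lists and measures were chosen with earlier results of these data known. The genes named from the lists are the 3 with the smallest and the 3 with the largest SD, and up to 6 per list that passed detection on no array. Alternatives were the processed signal centred on its 75th percentile, normexp correction (offset 50, limma 3.58.1) with quantile normalization, other rules on probes and outliers, and leaving out each array. Reading only the 3′ or the upstream probe, and the alternatives for the count of genes highest on replicate 2, were chosen after seeing the data. Position in a transcript was taken from the position column of the files, in which the distance between probes of ATF3, CHAC1 and PSAT1 equals their genomic distance. Probe coordinates are those of GRCh37 in the files, and promoters are those of RefSeq for GRCh38.p14. The spread measures were checked on simulated data. Cross-hybridisation with near-identical gene copies was not checked. Python 3.11.15, numpy 2.4.6, pandas 2.3.3, matplotlib 3.10.9 and R 4.3.3 were used.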

Additional observations from a re-analysis of the deposited data

Results flagged for a closer look

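The 47 values examined were those of the 10 genes, of the 8 probes of genes with several probes, of 24 genes named from the lists and of 5 list means. Dixon's ratio marked 3 of them (6.38%) in which a single array stood away from the rest. Chance gives about 5% of such groups, and 8.48% of all detected genes were marked. The ATF3 probe A_33_P3214105 lay high on replicate 2, at 4.98, where the other arrays lay between 4.38 and 4.43. IMPACT, the inhibitor of the amino acid sensing kinase, lay high on replicate 3, at 2.62, with 1.80 to 1.90 on the other arrays. ATF6, the sensor of another branch of the unfolded protein response, lay high on replicate 3, at 4.75, with 3.996 to 4.10 on the other arrays. Among list genes outside the values examined, PPP1CB, SHMT2, GPT2, SLC7A5 and KLHL24 were marked too, each high on replicate 3. That array was the highest for 48.5% of the detected genes, so the marks on it are not particular to IMPACT and ATF6.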

How the results depend on the processing

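All 10 genes were detected under every detection rule tried. The count of genes spanning more than 1.4-fold was 1 with the 3′ probe alone, chosen after seeing the data, since the ATF3 span of that probe was 1.397-fold; it was 3 with quantile normalization and with the median over all probes subtracted. The count of genes highest on replicate 2 was 5 with the 3′ probe alone in the 3 genes with several probes. It was 7 to 9 under the other alternatives on all arrays, and all alternatives for it were added after seeing the data. With replicate 1, 3 or 4 left out it was 8 to 9. There the count can only stay or rise, so leaving out an array is no check of it, and no share of the detected genes was taken. With 1 array left out the count of spanning genes ran from 0 (without replicate 2) to 2, the median SD from 0.133 (without replicate 2) to 0.211 (without replicate 4), and the SD of the mean over the 10 genes from 0.0371 (without replicate 2) to 0.177 (without replicate 4); with 3 arrays in place of 4 a span can only shrink. The SD of a single gene moved by more than the SD of its values with 1 array left out in 6 of 60 alternatives on all arrays, 3 of them to a smaller SD; with the 3′ probe alone that of ATF3 moved to 0.215, and with the upstream probe alone that of CHAC1 moved to 0.437. No paired analysis was possible because the values come from 1 group. The precision rests on 4 arrays; the dimmest probe, A_33_P3214096 of ATF3, had intensities from 276 to 398, with a median background of 33.0 to 34.0.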
